A study of Mus musculus with 18 samples.

Results

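*Sprr1a*, *Ly6d*, *Ttc39a*, *Themis* and *Raet1c* were 5 of the 23352 gene symbols measured by RNA sequencing in the livers of 18 male mice fed a high-fat diet (HFD). They were selected by their large falls in *Gpr180*KO liver, so the genotype difference of these genes is given as a description, and their calls in the fit across all genes support nothing. Their levels liver by liver, and the overlap of the 2 groups, come from the values behind that choice and are likewise a description. How they moved inside each genotype, with each other and with the genes of fat storage and collagen, was not used to choose them. The 9 wild-type mice carried intact *Gpr180*, and the 9 *Gpr180*KO mice were whole-body knockouts made by CRISPR/Cas9 removal of an exon in C57BL/6J eggs. The allele is predicted to leave a truncated transcript, from which reads can remain, and nothing in it is particular to liver. All 18 mice were 20 weeks old, all were fed HFD, and 1 library of poly(A) RNA was made per mouse from whole liver. The sample titles come in 2 styles, called here title series 1 (4 livers per genotype) and title series 2 (5 per genotype), and the labels do not say what the styles stand for. Livers on normal diet were not analysed here.

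The 5 genes belong to different families. *Sprr1a* encodes a small proline-rich protein that is cross-linked into the cornified envelope of skin and is also known as a gene switched on in injured nerve, heart and liver. *Ly6d* encodes a small membrane-anchored protein of the Ly6 family, used as a marker of early B cells and of keratinocytes. *Ttc39a* encodes a little-studied protein with tetratricopeptide repeats, which are protein-binding motifs. *Themis* encodes an adaptor of T cell receptor signalling needed for thymocyte development. *Raet1c* encodes one of the RAE-1 proteins, stress-induced surface ligands of NKG2D, the activating receptor (gene *Klrk1*) of natural killer (NK) cells. In steatosis, fat is stored in hepatocytes as droplets coated by proteins such as perilipins, and in fibrosis activated stellate cells deposit collagens.

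Levels were given as FPKM, read fragments scaled to the length of the transcript and to the size of the library, so they can be compared between genes per length. *Gpr180* itself ranged from 4.46 to 9.24 FPKM with the intact gene and from 0.876 to 1.99 FPKM in the knockouts, and the groups did not overlap. Sequencing depth relative to W317HFD, as estimated from lowly expressed genes, was 60.3 to 100% in wild-type and 44.1 to 93.3% in *Gpr180*KO libraries. KOhfd51 stood apart with a summed FPKM of 718746, against a median of 570149. All 10 hepatocyte markers had a mean of at least 1 FPKM. Differences between genotypes below are on the scale of log2(FPKM + 0.1), *Gpr180*KO minus wild-type, and the median over the 10835 genes tested was -0.13 with the values as deposited and -0.0054 after median-of-ratios scaling.

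*Sprr1a* lies on the reverse strand of chr3:92483954-92485881 (mm10, position as in the deposited tables) and overlaps no other gene of the GENCODE M21 annotation. It was highest in WThfd133 at 23.3 FPKM, with W317HFD at 22.2, W318HFD at 17.7 and W320HFD at 12.8 FPKM. The other wild-type livers held 6.32 FPKM (WThfd131), 5.77 (W319HFD), 4.32 (WThfd156), 2.29 (WThfd134) and 0.651 (WThfd157). The wild-type livers thus spread over a 35.7-fold range, and 0.821% of the genes tested had a larger SD of log2 values over these 9 livers. The *Gpr180*KO livers held 3.46 FPKM in KO319HFD, 2.24 in KOhfd51, 1.71 in KO322HFD, 1.13 in KO320HFD and 0.988 in KO321HFD. KOhfd52 held 0.668 FPKM and KOhfd56 held 0.218, and the gene was listed at 0 in KOhfd53 and KOhfd54. The means were 10.6 ± 8.66 FPKM (SD, n = 9) and 1.16 ± 1.15 FPKM (SD, n = 9), a log2 difference of -3.27 (SE 0.75), which was -2.14 with a pseudocount of 1 and -4.09 with 0.01. The groups overlapped: 6 *Gpr180*KO livers lay above WThfd157, but only KO319HFD lay above the next lowest wild-type liver, WThfd134. In bulk liver, fewer cells with a transcript and less transcript per cell cannot be told apart.

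The 250 bases before the start of *Sprr1a* are shown because this is the member with the widest spread, and the start in the RefSeq promoter table coincides with the end of the locus in the deposited tables. The region is chr3:92485882-92486131 (GRCm38.p6, reverse strand, written 5′ to 3′). Capitals mark matches, on either strand, to the AP-1 motif TGANTCA and to the TATA box motif TATAAA.

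*Sprr1a* upstream: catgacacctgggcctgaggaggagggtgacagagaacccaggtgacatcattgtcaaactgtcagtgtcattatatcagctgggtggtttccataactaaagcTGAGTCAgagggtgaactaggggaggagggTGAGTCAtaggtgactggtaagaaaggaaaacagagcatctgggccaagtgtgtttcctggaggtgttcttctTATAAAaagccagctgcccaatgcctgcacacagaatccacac

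AP-1 is a dimer of JUN and FOS family proteins induced by stress and growth signals. The window held 2 matches to TGANTCA, which do not overlap, and 1 match to TATAAA ending 37 bases before the start. In windows of the same length, 6.75% of the 32851 promoters in the table held TGANTCA, 0.338% held it at least 2 times, and 12.4% held TATAAA. The STAT motif TTCNNNGAA, held by 7.02%, was also searched and not found here. *Ttc39a* and *Themis* were the other members with entries, and their windows held none of these 3 motifs. The start used for *Ttc39a*, chr4:109415647, lies inside its locus in the deposited tables. Its window is therefore not the sequence before the start of that locus. A match describes these letters and not binding of a factor.

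*Ly6d* (chr15:74762056-74763567, reverse strand, no overlapping gene) was the most abundant member. In wild-type livers it reached 127 FPKM in W317HFD, 116 in WThfd133, 107 in W318HFD and 83.6 in W320HFD. The remaining wild-type livers held 47.2 FPKM (WThfd131), 40.3 (W319HFD), 29.4 (WThfd156), 29.1 (WThfd134) and 5.93 (WThfd157). The order of the 4 highest livers differed from that of *Sprr1a* only in the place of WThfd133, and the 5 lower livers came in the same order for both genes. The *Gpr180*KO livers ranged from 0.793 FPKM in KOhfd53 to 25.7 FPKM in KO319HFD, with a median of 8.71 FPKM. The means were 65.1 ± 44.2 FPKM (SD, n = 9) and 9.62 ± 8.35 FPKM (SD, n = 9), a log2 difference of -2.95 (SE 0.64). Overlap came from 1 wild-type liver: 5 *Gpr180*KO livers lay above WThfd157, and none lay above the next lowest, which held 29.1 FPKM. The confidence bounds deposited beside each FPKM did not contain the value in 11 of 18 libraries for *Ly6d* and in 4 of 18 for *Sprr1a*, so they were not used.

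*Ttc39a* (chr4:109407100-109444745, forward strand, no overlapping gene) was a low-level transcript. Its wild-type values ran from 0.641 FPKM in WThfd157 to 6.14 in WThfd133, with W317HFD at 3.97 and a median of 2.24 FPKM. In the knockout livers, it was highest in KO319HFD (1.78 FPKM) and KO321HFD (1.54 FPKM), and lowest in KOhfd52 (0.0613 FPKM) and KOhfd53 (0.0679 FPKM). WThfd157 was the only wild-type liver below the highest *Gpr180*KO liver. The means were 2.69 ± 1.56 and 0.635 ± 0.633 FPKM (SD, n = 9 each), a log2 difference of -2.23 (SE 0.47), which was -1.16 with a pseudocount of 1.

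*Themis* (chr10:28668395-28882749, forward strand) overlaps 2 annotated genes on the opposite strand, neither of them protein-coding, and whether the counting used strand is not given in the sources used here. Its lowest wild-type livers were WThfd134 at 1.09 FPKM and WThfd157 at 1.55 FPKM. Its highest were WThfd133 at 4.94 and WThfd156 at 3.93 FPKM, with a median of 2.07 FPKM. Among *Gpr180*KO livers, only KO322HFD, at 1.61 FPKM, lay above the lowest wild-type liver, and the others held 0.0898 to 0.999 FPKM. The means were 2.52 ± 1.22 and 0.616 ± 0.495 FPKM (SD, n = 9 each), a log2 difference of -2.07 (SE 0.39), which was -1.11 with a pseudocount of 1. WThfd156 is the liver that sets *Themis* apart from the other members, since it ranked 2 of 9 for *Themis* and 6 or 7 of 9 for the other 4 genes.

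*Raet1c* (chr10:22173902-22374139) was the lowest in level and the least separated. Wild-type livers ranged from 0.486 FPKM in WThfd157 to 3.16 in W320HFD, with a median of 1.78 FPKM. In livers lacking intact *Gpr180*, it was listed under 0.01 FPKM in KO322HFD, KOhfd52 and KOhfd53, and the others held 0.279 to 0.767 FPKM apart from KOhfd56, at 2.70 FPKM. KOhfd56 was above 7 of the 9 wild-type livers. The means were 1.75 ± 0.928 and 0.570 ± 0.845 FPKM (SD, n = 9 each), a log2 difference of -2.10 (SE 0.57), which was -0.86 with a pseudocount of 1 and -3.26 with 0.01. The locus of *Raet1c* in the tables holds that of its close relative *Raet1d* and most of that of *Raet1e*, so the split of reads among them is uncertain.

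**Figure D1:**
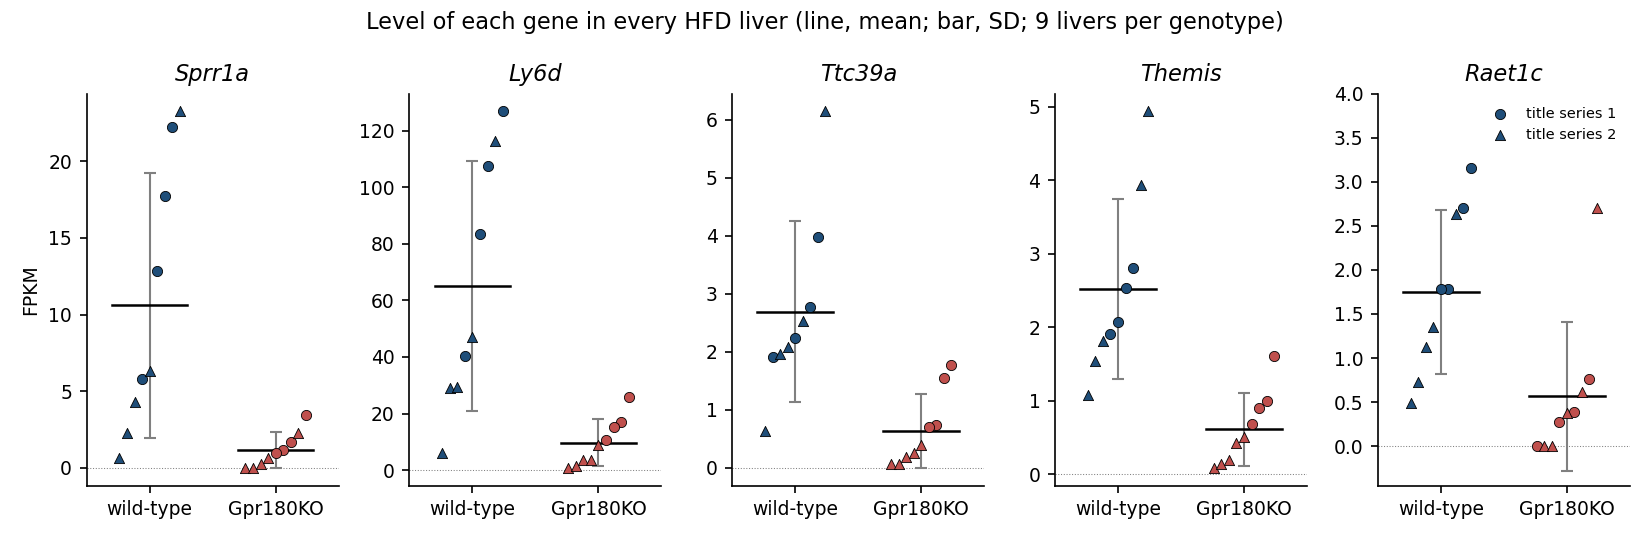
FPKM (linear axis) of each gene in the 9 wild-type (blue) and 9 *Gpr180*KO (red) HFD livers. Circles are title series 1, triangles title series 2, the line is the mean and the bar the SD. Wild-type *Ly6d* runs from 5.93 to 127 FPKM and *Gpr180*KO *Ly6d* from 0.793 to 25.7 FPKM, while the *Raet1c* value of 2.70 FPKM in KOhfd56 stands among the wild-type values.

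The same livers stood at the ends for most members. WThfd157 was the lowest wild-type liver for 4 of 5 genes and ranked 8 of 9 for *Themis*. WThfd133 was among the 3 highest wild-type livers for all 5 genes and the highest for 3. KO319HFD was among the 3 highest *Gpr180*KO livers for all 5, and KOhfd53 among the 3 lowest for all 5. Of the 81 pairs of a *Gpr180*KO and a wild-type liver, the *Gpr180*KO liver was the lower in 79 for *Themis*, 77 for *Ttc39a*, 76 for *Ly6d*, 74 for *Sprr1a* and 71 for *Raet1c*.

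All 5 members passed the filter on low values, a mean of at least 1 FPKM over the 18 livers. In limma over the 10835 genes that passed, 513 were past an adjusted p of 0.05 (Benjamini-Hochberg), 464 or 4.28% of the genes tested lower in *Gpr180*KO and 49 or 0.452% higher. After median-of-ratios scaling these were 171 lower and 112 higher. All 5 members were among the lower ones, from which nothing is read because this contrast chose them. This count was 4 with a pseudocount of 0.01, with median-of-ratios scaling and with 75th percentile scaling, 3 with no filter on low values, and 3 to 5 when any one library was left out, with 3 without W318HFD and 3 without WThfd133. In title series 1 alone it was 4, where 5.29% of all genes tested were called lower, and in title series 2 alone it was 0, where 1 gene in all was called lower (0.00932%), so that 0 says nothing about the members. The selection stated no cutoff, and 17 genes, members included, fell at least as far on the log2 scale as *Themis*, the smallest fall of the 5.

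The title series separated the *Gpr180*KO livers for some members. Among the knockouts of title series 1, *Ly6d* held 10.5 to 25.7 FPKM, against 0.793 to 8.71 FPKM in title series 2. *Ttc39a* held 0.698 to 1.78 FPKM in title series 1 and 0.0613 to 0.391 FPKM in title series 2, and *Themis* 0.691 to 1.61 FPKM and 0.0898 to 0.502 FPKM. For these 3 genes the 2 series of *Gpr180*KO livers did not overlap, while the 2 series of wild-type livers overlapped for all 5 members. The share of all genes tested that separates the series in this way was not computed. The separation is therefore not shown to be particular to these members. The log2 difference between genotypes in title series 1 and title series 2 was -1.18 and -3.07 for *Ttc39a*, -1.12 and -2.83 for *Themis*, -2.34 and -3.44 for *Ly6d*, -2.94 and -3.53 for *Sprr1a*, and -2.74 and -1.59 for *Raet1c*. The interaction of genotype with title series in limma was past the threshold in 0 of the 10835 genes (0%), with 833 at an unadjusted p under 0.05. For *Themis* the interaction was -1.71 (adjusted p = 0.581) and for *Ttc39a* -1.89 (adjusted p = 0.589), so neither difference between the series passed the test.

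Within each genotype the 5 genes were then compared pairwise with Pearson's r and Spearman's coefficient on log2(FPKM + 0.1), with two-sided exact permutation tests over all orders of the 9 livers. Adjustment was by Benjamini-Hochberg over the 20 relations (10 pairs in 2 genotypes). All 10 values of r in wild-type livers were positive, from 0.509 to 0.984, and 5 passed. Among *Gpr180*KO livers, 9 of 10 were positive, from -0.0454 to 0.928, and 3 passed. For scale, the median r of *Sprr1a* with the 10830 other genes tested was 0.295 in wild-type and 0.16 in *Gpr180*KO livers. For *Themis* these medians were 0.131 and 0.266, and for *Raet1c* 0.216 and 0.0133. The 95th percentile of r was 0.841 for *Sprr1a* and 0.851 for *Ly6d* in wild-type livers, and 0.873 and 0.877 in *Gpr180*KO livers. Of the pairs that passed, wild-type *Raet1c* with *Sprr1a* (0.82) and with *Ly6d* (0.785) lay below these. So did *Gpr180*KO *Ly6d* with *Ttc39a* (0.868) and with *Themis* (0.837), and the other pairs that passed lay above.

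*Sprr1a* and *Ly6d* rose and fell together most closely. In wild-type livers r was 0.984 and the Spearman coefficient 0.983 (n = 9, exact permutation p = 5.51e-06 and 4.96e-05, adjusted p = 0.00011 and 0.000992). Without the 2 livers farthest from the median of *Sprr1a*, r was 0.974 (n = 7). Centred within title series and permuted within it, r was 0.978 (exact permutation adjusted p = 0.00694), and leaving out any 1 wild-type liver gave r of 0.977 to 0.997. In the knockout livers, r was 0.928 and the Spearman coefficient 0.828 (n = 9, exact permutation p = 0.00048 and 0.00875, adjusted p = 0.0048 and 0.0438). There r was 0.798 without the 2 farthest livers, and 0.918 when centred (exact permutation adjusted p = 0.0521). The FPKM of *Ly6d* was 5.01 to 12.7 times that of *Sprr1a* in the 9 wild-type livers, with a median of 6.80, and 3.88 to 17.0 times, with a median of 8.16, in the 6 *Gpr180*KO livers with at least 0.5 FPKM of *Sprr1a*.

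*Ttc39a* followed this pair in wild-type livers, but with weight on single livers. Its r was 0.857 with *Sprr1a* and 0.884 with *Ly6d* (n = 9, exact permutation adjusted p = 0.0118 for each), and the Spearman coefficient was 0.783 and 0.767 (exact permutation adjusted p = 0.0689 and 0.0713). Without the 2 livers farthest from the median of the partner, r was 0.593 and 0.637, and neither passed without WThfd157. Centred within title series, r was 0.915 and 0.945 (exact permutation adjusted p = 0.0708 and 0.0521). In livers lacking intact *Gpr180*, r of *Ttc39a* with *Ly6d* was 0.868 (exact permutation adjusted p = 0.0127) and the Spearman coefficient 0.917 (adjusted p = 0.0131). Centred within title series it was 0.55 (exact permutation p = 0.172, adjusted p = 0.313).

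**Figure D2:**
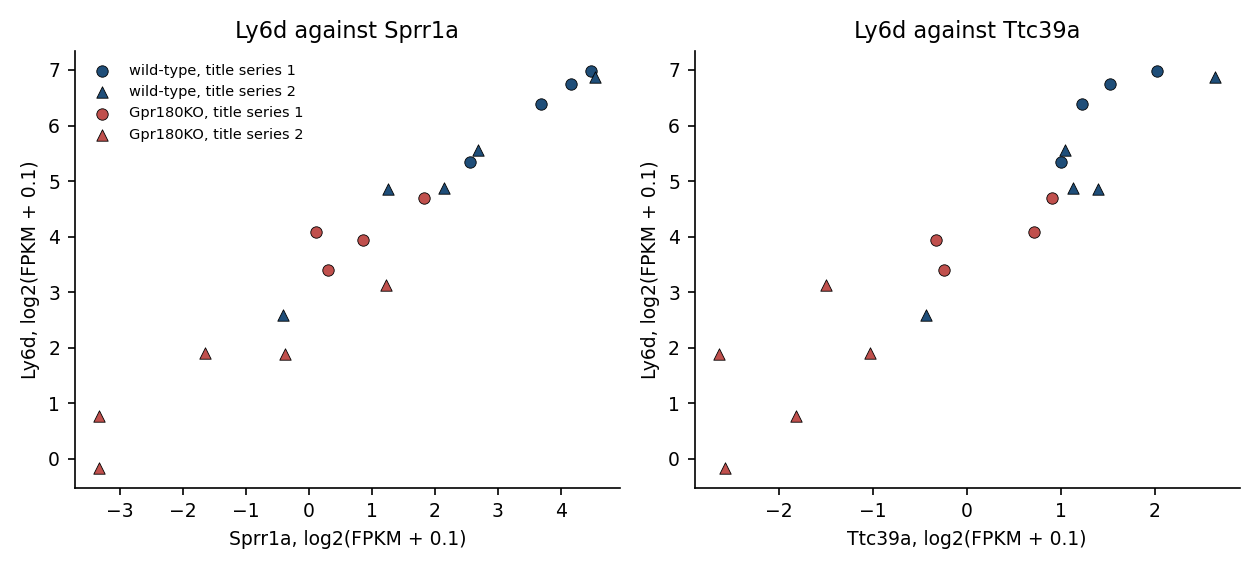
*Ly6d* against *Sprr1a* (left) and against *Ttc39a* (right), each axis log2(FPKM + 0.1), with 1 point per liver, blue for wild-type and red for *Gpr180*KO, circles for title series 1 and triangles for title series 2. On the left both genotypes run along 1 band, with r of 0.984 in wild-type and 0.928 in *Gpr180*KO livers, and WThfd157 lies among the *Gpr180*KO livers.

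*Themis* was the least tied to the others in wild-type livers, with r of 0.509 to 0.62 and none of the 4 relations past the threshold. For the 9 knockouts, its r with *Ly6d* was 0.837 (n = 9, exact permutation p = 0.00596, adjusted p = 0.0185) and the Spearman coefficient 0.867 (adjusted p = 0.0301). This r was 0.593 without the 2 farthest livers, did not pass without KOhfd53, and was 0.484 centred within title series (exact permutation p = 0.309, adjusted p = 0.441). With *Ttc39a* the r in *Gpr180*KO livers was 0.752 (exact permutation adjusted p = 0.0513), and 0.0533 when centred.

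*Raet1c* followed *Sprr1a* (r = 0.82, exact permutation adjusted p = 0.0185) and *Ly6d* (r = 0.785, exact permutation adjusted p = 0.0241) in wild-type livers. Both relations rested on few livers, since the Spearman coefficient was 0.65 and 0.633 (exact permutation adjusted p = 0.12 for each) and neither passed without WThfd133, without WThfd134 or without WThfd157. Among *Gpr180*KO livers, r of *Raet1c* with the other 4 members lay between -0.0454 and 0.392. Whether the relations differ between genotypes was not tested. Centred within title series, r of *Raet1c* with *Ttc39a* in *Gpr180*KO livers was 0.904 (exact permutation adjusted p = 0.0278), against 0.392 without centring.

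The members were next set against the mean log2 level of 18 genes of fat storage and uptake (steatosis list, such as *Plin2* and *Cidec*) and of 15 collagen genes, in the same way. The lists of lipid-associated macrophage genes (11 genes, such as *Trem2* and *Gpnmb*) and of cholesterol synthesis (18 genes) were set beside them, and adjustment was over the 40 relations of the 4 lists. In wild-type livers 11 of 20 passed and in *Gpr180*KO livers 13 of 20. The share of all genes tested that would pass against these list means was not computed. These counts are therefore not shown to be particular to the members. The steatosis mean was lowest in WThfd157 (4.65) and highest in W318HFD (5.71) among wild-type livers, and ran from 3.42 in KOhfd53 to 5.31 in KOhfd51 among *Gpr180*KO livers. The collagen mean ran from 1.84 (WThfd157) to 3.43 (W318HFD) in wild-type livers and from 1.09 (KOhfd53) to 2.56 (KO319HFD) in *Gpr180*KO livers. The livers lowest in these lists, WThfd157 and KOhfd53, were among the 3 lowest of their genotype for all 5 members.

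*Sprr1a* and *Ly6d* moved with the steatosis mean in both genotypes. In wild-type livers r was 0.947 for *Sprr1a* and 0.92 for *Ly6d*, with Spearman coefficients of 0.867 and 0.883 (n = 9, exact permutation adjusted p = 0.00411 for each r, 0.018 and 0.0154 for the Spearman coefficients). In the knockout livers, r was 0.896 and 0.888 (exact permutation adjusted p = 0.00511 and 0.00411), and the Spearman coefficient was 0.812 and 0.7 (adjusted p = 0.0284 and 0.0897). Without the 2 livers farthest from the median steatosis mean, these r were 0.795 and 0.787 in wild-type and 0.782 and 0.664 in *Gpr180*KO livers. Centred within title series they were 0.924, 0.886, 0.844 and 0.897 (exact permutation adjusted p = 0.0556, 0.0764, 0.104 and 0.0764), all positive and none past the threshold.

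Among single genes of the steatosis list, *Apoa4*, which encodes an apolipoprotein induced in fatty liver, had r of 0.979 with *Ly6d* in wild-type and 0.964 in *Gpr180*KO livers. *Cidec*, a protein that enlarges lipid droplets, had 0.94 and 0.914. *Cfd*, which encodes the adipocyte product adipsin, had -0.656 and -0.0542. *Lpl*, lipoprotein lipase, had r of 0.877 in wild-type and -0.855 in *Gpr180*KO livers. These 4 genes were chosen after their values were seen, and the median r of the 18 list genes with *Ly6d* was 0.74 in wild-type and 0.775 in *Gpr180*KO livers, against 0.304 and 0.227 over all genes tested.

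*Ttc39a*, *Themis* and *Raet1c* were related to the steatosis mean less evenly. In wild-type livers r was 0.772 for *Ttc39a* (exact permutation adjusted p = 0.0304), 0.629 for *Themis* (adjusted p = 0.0982) and 0.791 for *Raet1c* (adjusted p = 0.0246). The Spearman coefficient was 0.617, 0.6 and 0.55, none of them past the threshold, and without the 2 farthest livers r was 0.656, 0.227 and 0.155. *Ttc39a* did not pass without W317HFD or without WThfd157, nor *Raet1c* without WThfd134 or without WThfd157. In livers lacking intact *Gpr180*, r was 0.602 for *Ttc39a*, 0.757 for *Themis* (exact permutation adjusted p = 0.0226) and 0.126 for *Raet1c*. The r of *Themis* there was 0.287 without the 2 farthest livers and 0.637 when centred within title series, and it did not pass without any one of KO319HFD, KO321HFD, KOhfd53 and KOhfd54.

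With the collagen mean, *Ly6d* had r of 0.946 in wild-type and 0.93 in *Gpr180*KO livers (n = 9, exact permutation adjusted p = 0.00411 for each) and Spearman coefficients of 0.833 and 0.933 (adjusted p = 0.0276 and 0.00999). *Sprr1a* had r of 0.901 and 0.846 (exact permutation adjusted p = 0.00511 and 0.0136), and *Ttc39a* had 0.831 and 0.815 (exact permutation adjusted p = 0.0274 and 0.0217). *Themis* had 0.401 in wild-type livers (exact permutation adjusted p = 0.345) and 0.895 in *Gpr180*KO livers (adjusted p = 0.00511), a difference that was not tested. *Raet1c* had 0.664 (exact permutation adjusted p = 0.0711) and 0.099 (adjusted p = 0.856). Without the 2 livers farthest from the median, r of *Ly6d* was 0.912 in wild-type and 0.79 in *Gpr180*KO livers, and r of *Sprr1a* was 0.816 and 0.506. For *Ttc39a* it was 0.791 and 0.758, and for *Themis* among the knockouts 0.743. The wild-type relation of *Sprr1a* did not pass without WThfd157, that of *Ttc39a* did not pass without W317HFD or without WThfd157, and the *Gpr180*KO relation of *Ttc39a* did not pass without KO319HFD or without KOhfd53.

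Centred within title series, r with the collagen mean was 0.925 for *Ly6d*, 0.862 for *Sprr1a*, 0.877 for *Ttc39a*, 0.463 for *Themis* and 0.505 for *Raet1c* in wild-type livers. For the 9 knockouts, it was 0.794 for *Ly6d*, 0.733 for *Sprr1a*, 0.677 for *Themis*, 0.376 for *Ttc39a* and 0.233 for *Raet1c*, and no centred relation to collagen passed the threshold in either genotype. Over the 15 single collagen genes, the median r with *Ly6d* was 0.895 in wild-type and 0.869 in *Gpr180*KO livers. In wild-type livers r ran from -0.461 for *Col27a1* to 0.945 for *Col4a1*, and in the knockouts from -0.355 for *Col5a2* to 0.959 for *Col3a1*. *Col1a1* (0.892 and 0.947), *Col1a2* (0.936 in both) and *Col3a1* (0.936 and 0.959) had high r in both genotypes, whereas *Col5a2* (0.92 and -0.355), *Col5a3* (0.44 and 0.822) and *Col27a1* (-0.461 and 0.797) had high r in 1 genotype only, and the difference was not tested. *Col1a2*, *Col4a1*, *Col5a2*, *Col5a3* and *Col27a1* are named after their values were seen. Of all genes tested, 2.19% in wild-type and 3.4% in *Gpr180*KO livers had r of at least 0.9 with *Ly6d*.

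**Figure D3:**
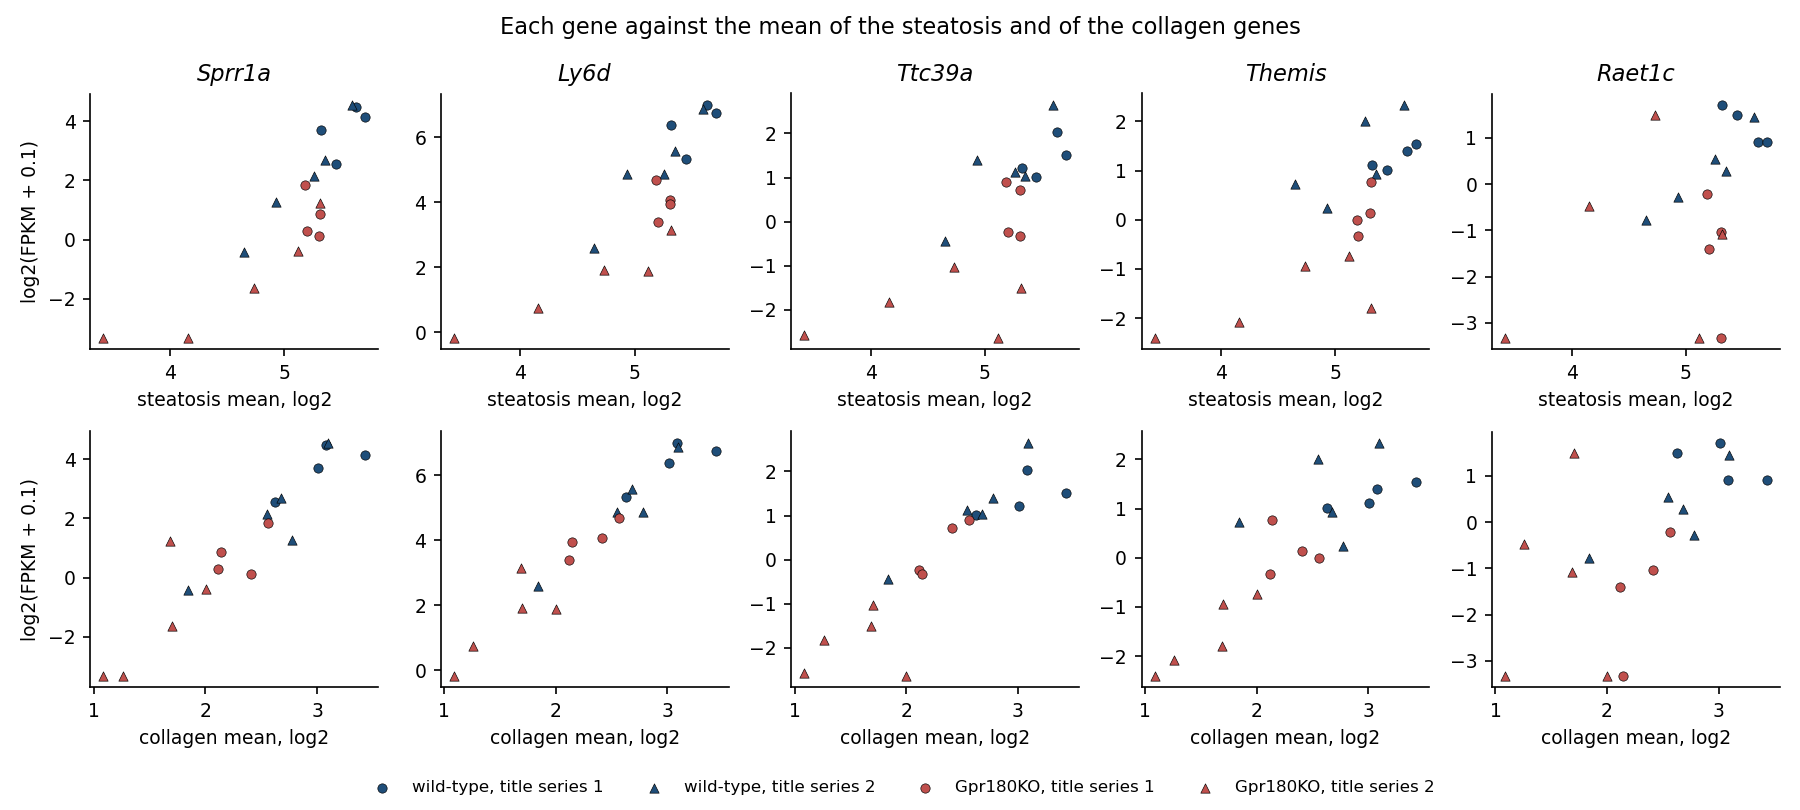
Each gene (vertical axis, log2(FPKM + 0.1)) against the mean log2 level of the steatosis genes (top row) and of the collagen genes (bottom row), with 1 point per liver, blue for wild-type and red for *Gpr180*KO, circles for title series 1 and triangles for title series 2. *Ly6d* rises with the collagen mean in both genotypes (r = 0.946 and 0.93), whereas the *Gpr180*KO points of *Raet1c* show no slope (r = 0.099).

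The macrophage list went with *Sprr1a* (r = 0.946) and *Ly6d* (r = 0.957) in wild-type livers (n = 9, exact permutation adjusted p = 0.00411 for each). These 2 relations were the only ones of the 40 that passed when centred within title series (exact permutation adjusted p = 0.0208 for each). *Ttc39a* had r of 0.775 (exact permutation adjusted p = 0.0309), which did not pass without W317HFD or without WThfd157. Among *Gpr180*KO livers, r was 0.741, 0.834 and 0.881 for *Sprr1a*, *Ly6d* and *Ttc39a* (exact permutation adjusted p = 0.0417, 0.0174 and 0.00875). Without KO319HFD the relations of *Sprr1a* and *Ly6d* did not pass, and that of *Sprr1a* did not pass either without any one of KO320HFD, KO321HFD, KOhfd51, KOhfd53 and KOhfd54. The cholesterol synthesis mean went with *Themis* alone among members in wild-type livers (r = 0.77, exact permutation adjusted p = 0.0274), and this did not pass without WThfd133, without WThfd134 or without WThfd156. *Sprr1a*, *Ly6d*, *Ttc39a* and *Raet1c* had r of 0.0742 to 0.241 with it there. In the knockout livers, its r was 0.905 with *Sprr1a*, 0.919 with *Ly6d* and 0.739 with *Themis* (exact permutation adjusted p = 0.00524, 0.00411 and 0.0417), and that of *Themis* passed only without KOhfd51 or without KOhfd56 when 1 liver was left out. The lists share livers and some genes, and the lists are themselves related across livers, so these relations are not separate from each other.

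**Figure D4:**
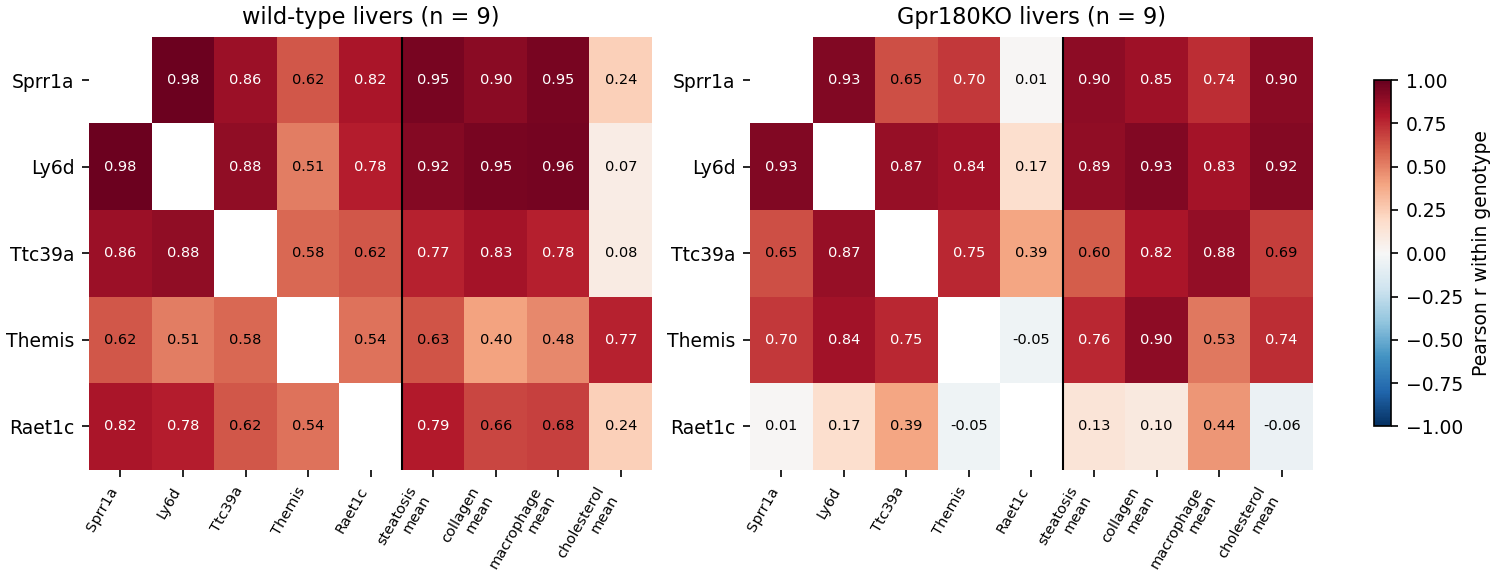
Pearson r (colour, from -1 to 1) within the 9 wild-type livers (left) and the 9 *Gpr180*KO livers (right), of each member (rows) with the other members and with the 4 list means (columns, separated by the line). The *Raet1c* row is 0.544 to 0.82 with other members in wild-type livers and -0.0454 to 0.392 in *Gpr180*KO livers.

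With the steatosis mean as a covariate, the coefficient of genotype over all 18 livers was -1.89 (SE 0.40) for *Sprr1a*, -1.79 (SE 0.35) for *Ly6d*, -1.61 (SE 0.41) for *Ttc39a*, -1.51 (SE 0.31) for *Themis* and -1.80 (SE 0.62) for *Raet1c*. With the collagen mean as a covariate it was -0.34 (SE 0.55) for *Sprr1a*, -0.25 (SE 0.33) for *Ly6d*, -0.54 (SE 0.42) for *Ttc39a*, -0.88 (SE 0.41) for *Themis* and -1.43 (SE 0.79) for *Raet1c*. These are descriptions without a test, from the contrast that chose the members. Both list means were themselves lower in *Gpr180*KO livers. The steatosis mean averaged 5.322 in wild-type and 4.86 in *Gpr180*KO livers, and the collagen mean 2.788 and 1.885.

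The genotype comparison of the list genes used the same livers and the same contrast. The lists were chosen with earlier results of these data known, so the counts here and in the next paragraph are descriptions. Of all genes tested, 4.28% were called lower. Of 18 steatosis genes tested, 1 fell, the fatty acid transporter *Cd36* (log2 difference -0.73, limma adjusted p = 0.0337), and the median was -0.50. *Fitm2* (-0.48, limma adjusted p = 0.0862) and *Scd1* (-0.36, adjusted p = 0.154) did not pass, the lowest difference was that of *Cidec* (-1.12, adjusted p = 0.217) and the highest that of *Cfd* (0.70, adjusted p = 0.602). Of 15 collagen genes, 9 fell, with a median of -0.90. *Col1a1* (-1.99, limma adjusted p = 0.0161), *Col3a1* (-1.73, adjusted p = 0.0132) and *Col6a2* (-1.01, adjusted p = 0.00726) were among them, and *Col18a1* was at 0.057 (adjusted p = 0.705). The calls of *Col1a1*, *Col3a1* and *Col6a2* held with each library left out, whereas *Cd36* did not pass without any one of W317HFD, W318HFD, W320HFD, WThfd133, KOhfd52, KOhfd53 and KOhfd54. Without WThfd133 the collagen genes called lower numbered 4.

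Of 11 macrophage genes 7 fell, with a median of -1.22. They included *Spp1*, osteopontin (-1.96, limma adjusted p = 0.00701), *Atp6v0d2*, a proton pump subunit (-1.01, adjusted p = 0.0159), *Cd63* (-1.34, adjusted p = 0.0212) and *Gpnmb* (-2.31, adjusted p = 0.0373), whereas *Ctsd* was at -0.31 (adjusted p = 0.124). *Spp1* and *Atp6v0d2* passed with each library left out, *Cd63* with each but WThfd133, and *Gpnmb* in 9 of 18 cases. The macrophage genes called lower numbered 2 without WThfd133, 3 without W317HFD or without W318HFD, and 4 without KOhfd53. Of 18 cholesterol synthesis genes 13 fell, with a median of -0.85, from *Sqle* (-1.63, limma adjusted p = 0.00157) to *Ebp*, which did not pass (0.095, adjusted p = 0.525). *Sqle* encodes an oxidase of this pathway that acts on squalene, and the genes called lower numbered 7 without WThfd133 and 8 without W317HFD, without W318HFD or without KOhfd53. Of 15 genes known to respond to liver injury 7 fell and 1 rose, with a median of -0.81. The inhibitor of matrix proteases *Timp1* (-1.98, limma adjusted p = 0.0159), *S100a11* (-1.32, adjusted p = 0.0163), *Anxa5* (-0.84, adjusted p = 0.0291) and the iron-carrier binding protein *Lcn2* (-2.27, adjusted p = 0.0309) fell, and the keratin *Krt23* rose (1.22, adjusted p = 0.0494). *Timp1* and *S100a11* passed with each library left out, *Anxa5* and *Lcn2* in 11 of 18 cases and *Krt23* in 4 of 18. Left out one library at a time, the injury genes called lower numbered 2 to 10, with 2 without any one of W317HFD, W318HFD, W320HFD, WThfd133, KOhfd52, KOhfd53 and KOhfd54 and 10 without WThfd157.

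Markers of the cell types for which the members are best known were low in these livers. *Themis* stood at a mean of 2.52 FPKM in wild-type and 0.616 FPKM in knockout livers, and it reached a mean of 1 FPKM over all livers. Of 16 T cell markers 2, *Zap70* and *Tcf7*, reached that mean over all livers. The summed level of the 16 markers was 7.84 to 13.4 FPKM in wild-type and 8.35 to 13.2 in knockout livers, and neither gene passed in limma. *Zap70*, at 5.15 and 6.37 FPKM, made up a large part of this sum, and without it the sum was 3.55 to 7.12 FPKM (median 5.56) in wild-type and 3.18 to 5.06 (median 3.99) in knockout livers. Of the 16 markers 13 had a lower mean among the knockouts, such as *Tcf7* (1.64 and 1.06 FPKM) and *Lck* (0.439 and 0.307 FPKM). *Cd4* had a higher mean (0.244 and 0.415 FPKM). For scale, 76.9% of the 10835 genes tested had a negative log2 difference. Counts of lower means, here and for the cell types below, are descriptions to be set beside that share. With a minimum of 0.1 FPKM, 0 of 14 passed in limma, with a median log2 difference of -0.31 against -0.15 over all genes tested, and the part of T cells in the level of *Themis* was not tested. Of 9 B cell markers only *Blnk* reached 1 FPKM, and the sum was 3.43 to 6.55 FPKM in wild-type livers (2.19 to 4.68 in the knockouts). *Ly6d* held 5.93 to 127 FPKM in wild-type and 0.793 to 25.7 FPKM in knockout livers. The part of B cells in the level of *Ly6d* was not tested. Of these 9, 8 had a lower mean among the knockouts. With a minimum of 0.1 FPKM, 0 of 7 passed in limma, with a median log2 difference of -0.44. Of 12 squamous epithelium markers 7 had a mean under 0.1 FPKM, and *Perp* and *Dsp*, which are not restricted to squamous cells, made up most of the sum of 61.0 to 78.5 FPKM in wild-type and 47.9 to 77.5 in knockout livers. Of 8 cholangiocyte markers 3 were tested, and *Sox9*, a regulator of the bile duct lineage, fell (-0.70, limma adjusted p = 0.0454). It did not pass with median-of-ratios scaling (adjusted p = 0.121) and passed in 4 of 18 cases with 1 library left out. All 8 cholangiocyte markers had a lower mean among the knockouts. With a minimum of 0.1 FPKM, 1 of 7 was called lower in limma, against 5.54% of all genes tested, with a median log2 difference of -0.52. The sum of these 8 was 9.68 to 18.4 FPKM in wild-type and 7.48 to 9.98 in knockout livers, and its part in the levels of the members was not tested.

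*Zap70*, *Tcf7*, *Lck*, *Cd4*, *Blnk*, *Perp*, *Dsp*, *Sox9*, *Tyrobp*, *Car3* and *Fabp4* are named as markers that were detected, some of them after their values were seen. The NK cell list was led by *Tyrobp*, which myeloid cells also express, and its sum was 29.6 to 82.9 FPKM in wild-type and 32.6 to 63.9 in knockout livers, with *Tyrobp* at -0.44 (limma adjusted p = 0.169). Of 8 adipocyte markers 4 were under 0.1 FPKM, and the 4 tested were *Car3*, *Fabp4*, *Cidec* and *Cfd*, which the liver or the steatosis list also holds, none of them past the threshold, with a sum of 2001 to 2654 FPKM with *Gpr180* intact and 1666 to 2633 without. Of 10 hepatocyte genes 0 passed in limma, 2 had a negative log2 difference and the median was 0.18. They ran from *Apob* (-0.28, limma adjusted p = 0.432) to *Tat* (0.54, adjusted p = 0.302), with summed levels of 20508 to 24841 FPKM in wild-type and 22606 to 35394 in knockout livers.

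Relatives of the members behaved differently from family to family. None of the 14 other *Sprr* genes measured passed the filter, and the highest mean among them in wild-type livers was 0.0875 FPKM (*Sprr2b*), so *Sprr1a* was the member of its family detected. *Sprr2a1* and *Sprr2a2* had equal values in every summary, as near-identical copies do when reads are shared. Of 25 other Ly6 family genes 5 were tested and 0 passed. With a minimum of 0.1 FPKM, where 5.54% of all genes tested were called lower, 9 were tested and 3 fell in limma: *Lynx1* (log2 difference -0.96, adjusted p = 0.011), the urokinase receptor *Plaur* (-1.26, adjusted p = 0.0386) and *Ly6k* (-1.37, adjusted p = 0.0386). *Ly6e*, at 132 and 108 FPKM, was the most abundant, with a log2 difference of -0.29 (limma adjusted p = 0.179). *Ly6c2* was at -0.92 (adjusted p = 0.121), *Ly6a* at -0.29 (adjusted p = 0.601), *Lypd1* at -0.32 (adjusted p = 0.236) and *Gpihbp1*, which carries lipoprotein lipase on endothelium, at -0.22 (adjusted p = 0.379).

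*Ttc39b* and *Ttc39c* had higher means in *Gpr180*KO livers, at 0.047 (limma adjusted p = 0.916) and 0.47 (adjusted p = 0.228), and *Ttc39c* was more abundant than *Ttc39a*, at 58.6 ± 22.4 FPKM in wild-type livers (SD, n = 9). *Themis2*, a relative expressed in B cells and macrophages, was at -0.52 (limma adjusted p = 0.0977). *Ttc39d* and *Themis3* were under 0.01 FPKM. In the wild-type livers *Ttc39a* was therefore the lower expressed of the tested members of its family, and *Themis* and *Themis2* were of like level, at 2.52 and 2.66 FPKM.

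The NKG2D ligand genes were led by *Raet1d*, at 25.9 ± 9.57 FPKM in wild-type and 13.2 ± 4.32 in knockout livers (SD, n = 9 each). *Raet1d* fell by 0.90 on the log2 scale (limma adjusted p = 0.04) and *Raet1e* by 1.27 (adjusted p = 0.0136). *Raet1e* passed with each library left out and with median-of-ratios scaling, while *Raet1d* passed in 6 of 18 cases with 1 library left out and not with that scaling (adjusted p = 0.0802). *Raet1a* (1.46 and 0.459 FPKM), *Raet1b* (0.29 and 0.258 FPKM), *Ulbp1* (0.223 and 0.13 FPKM), *H60b* and *H60c* had means under 1 FPKM over the 18 livers. KOhfd56 was the highest *Gpr180*KO liver for *Raet1c*, for *Raet1d* (23.1 FPKM) and for *Raet1e* (6.92 FPKM). The sum of *Raet1a* to *Raet1e*, which does not depend on how reads were split among them apart from their lengths, was 13.9 to 53.5 FPKM in wild-type and 12.8 to 33.6 in knockout livers, with a log2 difference of -1.04 against -2.10 for *Raet1c* alone. Its r with *Sprr1a* was 0.628 in wild-type and -0.211 in *Gpr180*KO livers (n = 9, exact permutation p = 0.0689 and 0.612). In wild-type livers its r was 0.734 with *Ly6d* (exact permutation p = 0.0307), 0.76 with the collagen mean (p = 0.0211) and 0.734 with the macrophage mean (p = 0.0263), unadjusted, with Spearman coefficients of 0.267, 0.467 and 0.3, and in the knockouts r was -0.0717, -0.0425 and 0.229. This sum was added after the data were seen.

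**Figure D5:**
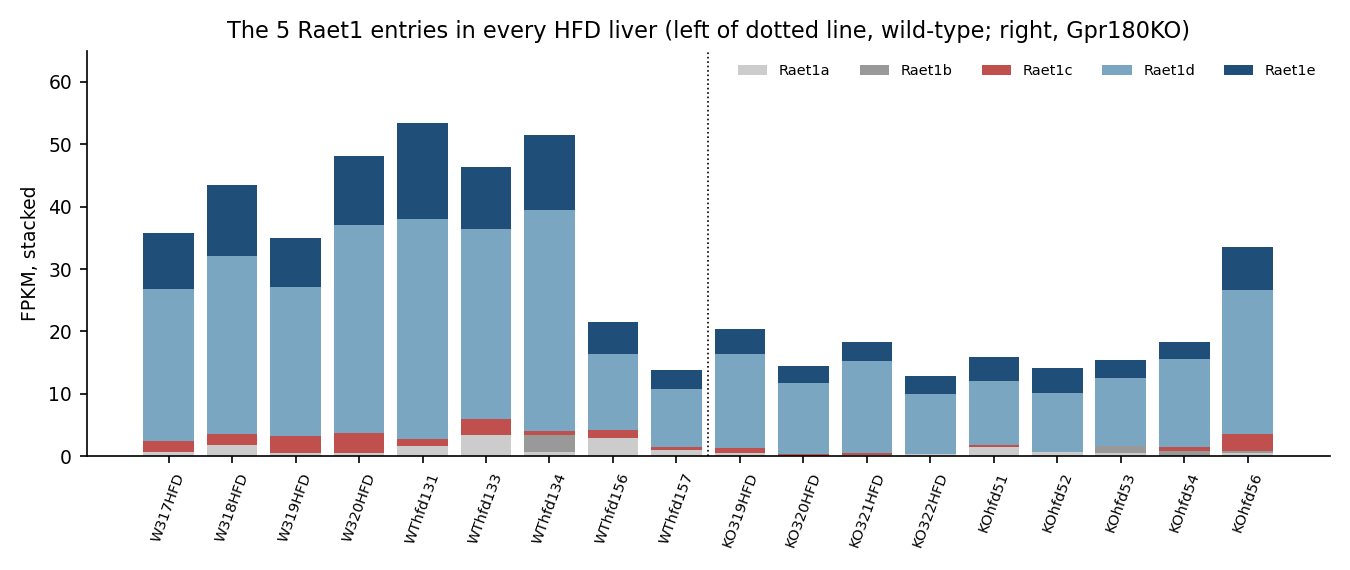
FPKM of the 5 *Raet1* entries, stacked from 0, in each wild-type liver (left of the dotted line) and each *Gpr180*KO liver (right). *Raet1d* and *Raet1e* make up most of every bar and *Raet1c* (red) a small part, and KOhfd56 has the tallest *Gpr180*KO bar, at 33.6 FPKM.

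The genes most like each member over the 9 wild-type livers, by Pearson r over the 10830 other genes tested, are given as a description. For *Sprr1a* they were *Plau*, the urokinase plasminogen activator (r = 0.989), *Slc13a3* (0.988), *Dnajc14* (0.984), *Nudt18* (0.982) and *Ifi27l2b* (0.982). For *Ly6d* they were *Fez2* (0.991), *Ifi27l2b* (0.988), *Cmas* (0.985), the acute-phase gene *Orm2* (0.981) and *Tmem9b* (0.979). *Ifi27l2b* was thus on both lists, at 33.6 FPKM in wild-type and 11.1 in knockout livers. For *Ttc39a* they were *Ppap2c* (0.978), *Arpp19* (0.962), *Efcab4a* (0.959), the acute-phase gene *Saa2* (0.948) and *Unc119* (0.947).

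For *Themis* they were *Tgfbr2*, a receptor of transforming growth factor β (r = 0.988), *Jkamp* (0.951), *Tbc1d24* (0.949), *Pop4* (0.948) and *Tor1a* (0.941). For *Raet1c* they were *Lhx6* (0.957), *Kctd9* (0.954), *Prkrir* (0.947), *2010003K11Rik* (0.946) and *Dbi* (0.941). The number of genes with r of at least 0.9 in wild-type livers was 237 for *Ly6d*, 194 for *Sprr1a*, 49 for *Ttc39a*, 26 for *Themis* and 25 for *Raet1c*, and in *Gpr180*KO livers it was 368, 312, 111, 177 and 4. These are counts over 9 livers, in which high values of r arise readily among so many genes.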

How the data were processed

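Poly(A) RNA libraries from whole liver were aligned to mm10 by the authors with the TopHat Alignment application, and the deposited tables give FPKM per gene for each mouse. The program that computed FPKM, its annotation and its strand setting are not given in the sources used here. Entries of 1 symbol were summed (23847 entries, 23352 symbols), and 24 symbols with failed values were left out. No counts were used, so the depth behind each value is unknown apart from the relative estimate. After a filter on the mean (1 FPKM or more over the 18 livers), log2(FPKM + 0.1) was fitted with limma 3.58.1 (lmFit, eBayes with trend, R 4.3.3), and p-values were adjusted by the Benjamini-Hochberg method across every gene in the fit. For low genes a difference on this scale depends on the pseudocount. It can understate the change or, where values are listed at or near 0, overstate it. For *Raet1c* it was -2.10, against -0.86 with a pseudocount of 1 and -3.26 with 0.01. Exact permutation tests of correlations used Python 3.11.15, numpy 2.4.6 and pandas 2.3.3, and both scripts were tested on simulated data. Figures were drawn with matplotlib 3.10.9. List means leave out members.

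The members and the gene lists were chosen with earlier results of these data known. Text names the 5 members, *Gpr180*, measured relatives, the 5 genes most like each member in wild-type livers, the 3 genes with the lowest p of the steatosis, collagen, macrophage and injury lists, and each list's lowest and highest gene. Some single steatosis and collagen genes and some detected markers of other cell types were named outside this rule, after their values were seen. Nothing in the labels says whether livers came from separate litters or cages. The p-values treat the mice as independent, and could be too small if mice shared a litter or a cage. Promoter sequence is from RefSeq (GRCm38.p6), with entries for 3 of 5 members. Alternatives were pseudocounts of 1 and 0.01, a minimum of 0.1 FPKM or none, 2 scalings, the title series, and each library left out.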

Additional observations from a re-analysis of the deposited data

Results flagged for a closer look

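In groups of 9 livers, a sample was marked when its gap to the nearest of the others, divided by the range of the group, was above Dixon's 95% critical value. Of 24 groups examined on the log2 scale, 3 were marked, where chance marks about 1 in 20. WThfd157 was far below the other wild-type livers for *Ly6d* (ratio 0.517), KOhfd56 far above the other *Gpr180*KO livers for *Raet1e* (ratio 0.571), and WThfd134 far below the other wild-type livers for the cholesterol synthesis mean (ratio 0.522). Without WThfd157, the wild-type mean of *Ly6d* was 72.5 ± 40.8 FPKM (SD, n = 8).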

How the results depend on the processing

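Against 513 genes called, 837 were called with a minimum of 0.1 FPKM, 313 with no filter, 283 with median-of-ratios and 322 with 75th percentile scaling, 1153 with title series as a block and 1 in title series 2 alone, and 129 (without WThfd133) to 920 (without WThfd157) with 1 library left out. This count moved by over 1.5 times without W317HFD, W318HFD, W320HFD, WThfd156, KOhfd51, KOhfd52, KOhfd53 or KOhfd54 as well. The interaction gave 0 to 1 genes with 1 library left out, and the interaction of *Sprr1a* turned to 0.487 with a pseudocount of 1 and ranged from -1.27 to 0.0351 with 1 library left out. Genes called lower numbered 3 of the steatosis list with the block (0 to 2 with 1 library left out), 11 of the macrophage list with a minimum of 0.1 FPKM (2 to 9), 8 of the cholesterol list (7 to 16) and 1 NKG2D ligand (1 to 2) with median-of-ratios scaling, and 4 to 11 collagen and 2 to 10 injury genes with 1 library left out.

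Of the 32 relations past the threshold, 20 stayed past it by Spearman's coefficient, 3 when centred within title series, 2 without the 2 farthest livers (where n = 7), 27 with median-of-ratios scaling, 31 with a pseudocount of 1 and 32 with 0.01. All 32 stayed positive under these. *Sprr1a* with *Ly6d* in wild-type livers passed under every alternative run. Among list relations, wild-type livers gave 7 by the Spearman coefficient, 2 centred, 0 without the 2 farthest and 6 to 13 with 1 liver left out, and *Gpr180*KO livers gave 0 centred, 1 without the 2 farthest and 8 to 14. Among pairs of members, wild-type livers gave 1 under each of these 3 and 1 to 6 with 1 liver left out, and *Gpr180*KO livers gave 1 centred, 0 without the 2 farthest and 2 to 4.

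The relations that changed sign had not passed the threshold, and the cause was not tested. Without the 2 farthest livers, wild-type r was -0.0613 for *Raet1c* with *Ttc39a*, -0.0289 for *Raet1c* with the macrophage list, and -0.562, -0.581, -0.340 and -0.732 for *Sprr1a*, *Ly6d*, *Ttc39a* and *Raet1c* with cholesterol synthesis. In *Gpr180*KO livers *Raet1c* then had -0.290 with *Sprr1a*, -0.0569 with *Ly6d*, -0.624 with steatosis and -0.148 with collagen. Median-of-ratios scaling gave wild-type *Ly6d* -0.0502 and *Ttc39a* -0.0365 with cholesterol synthesis. The Spearman coefficient of *Raet1c* was -0.0833 with cholesterol synthesis in wild-type and -0.183 with steatosis in *Gpr180*KO livers. In the latter livers, *Raet1c* with a pseudocount of 1 had -0.120 with *Sprr1a* and -0.0245 with steatosis, and with 0.01 it had 0.00248 with *Themis* and 0.0533 with cholesterol synthesis. Centred *Themis* there had -0.122 with the macrophage list. The *Raet1a* to *Raet1e* sum had -0.0326 with *Themis* and -0.422 with cholesterol synthesis in wild-type livers, and -0.211 with *Sprr1a*, -0.0717 with *Ly6d*, -0.112 with steatosis and -0.0425 with collagen in *Gpr180*KO livers. With 1 liver left out, wild-type r with cholesterol synthesis ranged from -0.115 to 0.584 for *Sprr1a*, -0.173 to 0.410 for *Ly6d*, -0.289 to 0.384 for *Ttc39a* and -0.286 to 0.503 for *Raet1c*. *Gpr180*KO r of *Raet1c* ranged from -0.316 to 0.220 with *Sprr1a*, -0.158 to 0.372 with *Ly6d*, -0.375 to 0.257 with *Themis*, -0.499 to 0.368 with cholesterol synthesis, -0.226 to 0.254 with collagen and -0.444 to 0.271 with steatosis.

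No paired analysis was possible because the replicate numbers were given in accession order and pair no mice. Depth behind single values is unknown, and the log2 differences of *Sprr1a*, *Ttc39a*, *Themis* and *Raet1c* moved by over 1.5 times with a pseudocount of 1 (to -2.14, -1.16, -1.11 and -0.86), while *Ly6d* was at -2.70.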
